A study of Mus musculus with 6 samples.

Results

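The early genes described here are 10 genes of the KLF, NR4A, EGR, IER and DUSP families, chosen by name from the 14956 genes of the deposited heart table: Klf2, Klf4, Klf6, Nr4a1, Nr4a2, Nr4a3, Egr1, Ier2, Ier3 and Dusp1. All 10 were listed. The hearts came from 3 wild-type mice (Otub1 +/+, WT) and 3 mice with a heterozygous knockout of Otub1 (Otub1 +/-, Het), and each library was made from poly(A) RNA of 1 heart. Both groups had received doxorubicin (DOX), an anthracycline chemotherapy drug that injures the heart, in 6 injections over 2 weeks, so no untreated reference stands beside them. The sources used here give no strain, no age and no interval between the last injection and collection, and early transcripts are short-lived.

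Early response genes are transcribed within minutes of a stimulus, without new protein synthesis, from promoters that are already open, and their RNAs decay quickly. Mitogen-activated protein (MAP) kinases, calcium, cyclic AMP and fluid shear stress reach them through the factors SRF, CREB and MEF2. KLF2, KLF4 and KLF6 are Krüppel-like zinc finger transcription factors, and flow induces KLF2 and KLF4 in endothelium, among other cell types that express them. NR4A1, NR4A2 and NR4A3 are orphan nuclear receptors. EGR1 is a zinc finger transcription factor, IER2 a small nuclear protein, IER3 a regulator of cell survival, and DUSP1 a phosphatase that switches MAP kinases off.

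Promoter sequences of 4 members are shown because they form paralog pairs of which, as described below, 1 member separated the genotypes and the other did not: Klf4 beside Klf2, and Nr4a3 beside Nr4a1. Each runs 5′ to 3′ on the gene's strand from 250 bases before the RefSeq start (GRCm38.p6) and ends at the start or before the first exon base of the gene in GENCODE M21. Capitals mark TGACG or its reverse complement CGTCA, the half-site bound by CREB family factors. The windows are chr4:55532476-55532725 (minus strand) for Klf4, chr8:72318812-72319032 (plus) for Klf2, chr4:48045055-48045152 (plus) for Nr4a3 and chr15:101266596-101266845 (plus) for Nr4a1. The Nr4a1 window lies inside the annotated gene but in none of its exons, and the other windows lie outside their genes.
Klf4: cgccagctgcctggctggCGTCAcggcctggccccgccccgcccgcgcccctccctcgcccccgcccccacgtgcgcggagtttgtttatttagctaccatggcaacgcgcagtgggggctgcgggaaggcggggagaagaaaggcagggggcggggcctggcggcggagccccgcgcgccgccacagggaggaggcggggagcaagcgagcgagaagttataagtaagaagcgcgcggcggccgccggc
Klf2: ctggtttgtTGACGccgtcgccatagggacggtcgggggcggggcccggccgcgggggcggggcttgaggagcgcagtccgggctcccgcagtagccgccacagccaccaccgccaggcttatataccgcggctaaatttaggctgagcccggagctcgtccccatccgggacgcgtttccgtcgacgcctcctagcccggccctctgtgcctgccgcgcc
Nr4a3: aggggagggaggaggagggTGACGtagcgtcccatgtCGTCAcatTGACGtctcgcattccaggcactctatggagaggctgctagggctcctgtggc
Nr4a1: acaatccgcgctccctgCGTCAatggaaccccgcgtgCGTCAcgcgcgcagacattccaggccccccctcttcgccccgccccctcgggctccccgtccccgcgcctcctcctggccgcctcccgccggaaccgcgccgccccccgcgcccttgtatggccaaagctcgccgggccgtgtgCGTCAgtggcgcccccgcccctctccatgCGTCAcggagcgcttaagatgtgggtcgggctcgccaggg

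Over the full 250 bases, TGACG in either orientation occurred 4 times each in Nr4a1, Nr4a2 and Nr4a3 and 3 times in Dusp1, where 0.688% of all 32851 windows of that length held 3 or more. Of the 4 in Nr4a3, 3 lie in the stretch shown. Klf2 and Klf4 each held 1, and Klf6 and Ier3 none, where 17.8% of all windows held at least 1. The full element TGACGTCA, which contains the half-site on both strands, was present in Dusp1 alone of the 8 members searched (1.55% of all windows). The GC box GGGCGG was present in all 8 (32.7% of all windows), and the EGR motif GCGGGGGCG, which can overlap it, in Klf2, Klf4 and Nr4a1 (2.57%). The EGR motif GCGTGGGCG (0.536%) and the CArG box of SRF (1.47%) were in none of the 8, and TATAAA was in Nr4a2 alone (12.4%). All motifs were searched on both strands. The 8 member windows held from 54.4% (Ier3) to 80% (Nr4a2) G and C. The shares over all windows were not matched for this content, so they do not show that a motif is particular to early genes. Ier2 had no window, and Egr1, on chromosome 18, was left out of the search, so nothing is said of their motifs.

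The libraries differed before any early gene is considered. Otub1 was 14.2 to 15.4 FPKM (fragments scaled to transcript length and to the mapped fragments of the library) in WT hearts, against 4.83 to 6.65 FPKM in Het hearts. In Het 1 the mitochondrial transcripts took 65.0% of the summed FPKM, against 51.5% to 56.1% elsewhere, and the median gene lay 0.45 below the WT mean on the log2(FPKM + 1) scale, against 0.03 and 0.04 below in Het 2 and Het 3. Cardiomyocyte markers (5 of 5 listed) summed to 11792 to 13961 FPKM across the WT hearts, against 5157 to 11086 FPKM in Het, lowest in Het 1. Endothelial markers (11 of 11 listed) summed to 221 to 256 FPKM across the WT hearts, against 209 to 266 FPKM in Het. Lung epithelial markers (7 of 7 listed) summed to 798 FPKM in Het 3 and to at most 0.129 FPKM in WT, and all 7 were at 0 in Het 1 and Het 2. Hepatocyte markers (8 of 8 listed) summed to 98.8 to 143 FPKM across the WT hearts, against 1.94 to 37.1 FPKM in Het, with Alb at 0.296 FPKM in Het 3. Interferon response genes (5 of 5) summed to 11.0 to 13.9 FPKM in WT, and to 192, 169 and 14.1 FPKM in Het 1, 2 and 3. Erythroid genes (6 of 6) summed to 1006 to 1395 FPKM across the WT hearts, against 680 to 5705 FPKM in Het, highest in Het 1. Fibroblast markers (6 of 6) summed to 106 to 129 FPKM over WT hearts and 69.9 to 106 FPKM over Het hearts, lowest in Het 1, and smooth muscle and pericyte markers (6 of 6) to 195 to 215 and 166 to 229 FPKM. Neutrophil markers (3 of 4 listed) summed to at most 3.71 FPKM, and of 6 lymphocyte markers 1, an immunoglobulin gene, was listed, highest in Het 3 at 5.06 FPKM. Macrophage markers (8 of 8) summed to 130.4 to 147 FPKM across the WT hearts, against 148 to 251 FPKM in Het, highest in Het 3.

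The design compares the genotypes under DOX. Klf4 and Nr4a3 did not overlap between the genotypes, being below all WT hearts in each Het heart, at 55.8% and 38.8% of the WT mean, and the other 8 members overlapped. The test was limma's on log2(FPKM + 1), over 11096 genes whose mean reached 1 FPKM. By it, 0 of the 9 tested members passed an adjusted p of 0.05, a threshold that 0.018% of all tested genes passed. Otub1 itself, at 40.4% of its WT mean, did not pass (limma's p 0.000441 unadjusted and 0.376 adjusted). Failing this threshold therefore does not show that a level was unchanged. At an unadjusted p under 0.05, 2 of 9 members were lower and 0 higher, where 3.08% of all tested genes were lower and 0.802% higher. Groups that did not overlap, with Het below WT, were found for 2 of 9 members and for 15.6% of all tested genes. The reverse separation was found for 0 of 9 members and for 1.83% of all tested genes. Klf4 and Nr4a3 are the 2 genes by either rule. Nr4a3 reached the minimum mean of 1 FPKM through the WT hearts, its Het mean being 0.969 FPKM, so its entry into the test favoured a lower Het level. With no filter the counts were 2 of 10 by either rule, Klf4 and Nr4a3 again, where 13.9% of all genes did not overlap and 3.55% were lower by unadjusted p. Without Het 3 the second count was 5 of 9 (Klf4, Nr4a3, Klf6, Egr1 and Dusp1), and 23.6% of all genes. It was 3 of 9 without Het 1 (21.7% of all genes, Ier2 added), WT 1 (18.8%, Klf6 added), WT 2 (23.4%, Egr1 added) or WT 3 (20.9%, Ier3 added), and 2 of 9 without Het 2 (25.7%). By unadjusted p the count was 1 of 9, Klf4, without WT 1 (1.13% of all genes), WT 3 (1.52%) or Het 2 (4.39%). It was 2 of 9 without WT 2 (1.21%) or Het 3 (3.58%), and 3 of 9 without Het 1 (9.39%), with Ier2 added. Library weights likewise gave 3 of 9 with Ier2 added, where 10% of all genes were lower by that rule. The count was 2 of 9 with a pseudocount of 0.1 (2.87%), with the replicate number as a block (1.71%) and with a plain variance model (3.51%). A minimum mean of 5 FPKM left 7 members in the test, of which Klf4 alone was lower by either rule (20.1% of all genes by non-overlap and 2.86% by unadjusted p). Median-ratio scaling kept Klf4 and Nr4a3 by both rules (7.28% and 1.97%), each by a small margin in non-overlap. Quantile normalization left 0 by non-overlap (7.16%) and Nr4a3 by unadjusted p (2.07%), and scaling without mitochondrial genes left Klf4 by non-overlap (10.9%) and both by unadjusted p (2.1%).

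**Figure D1:**
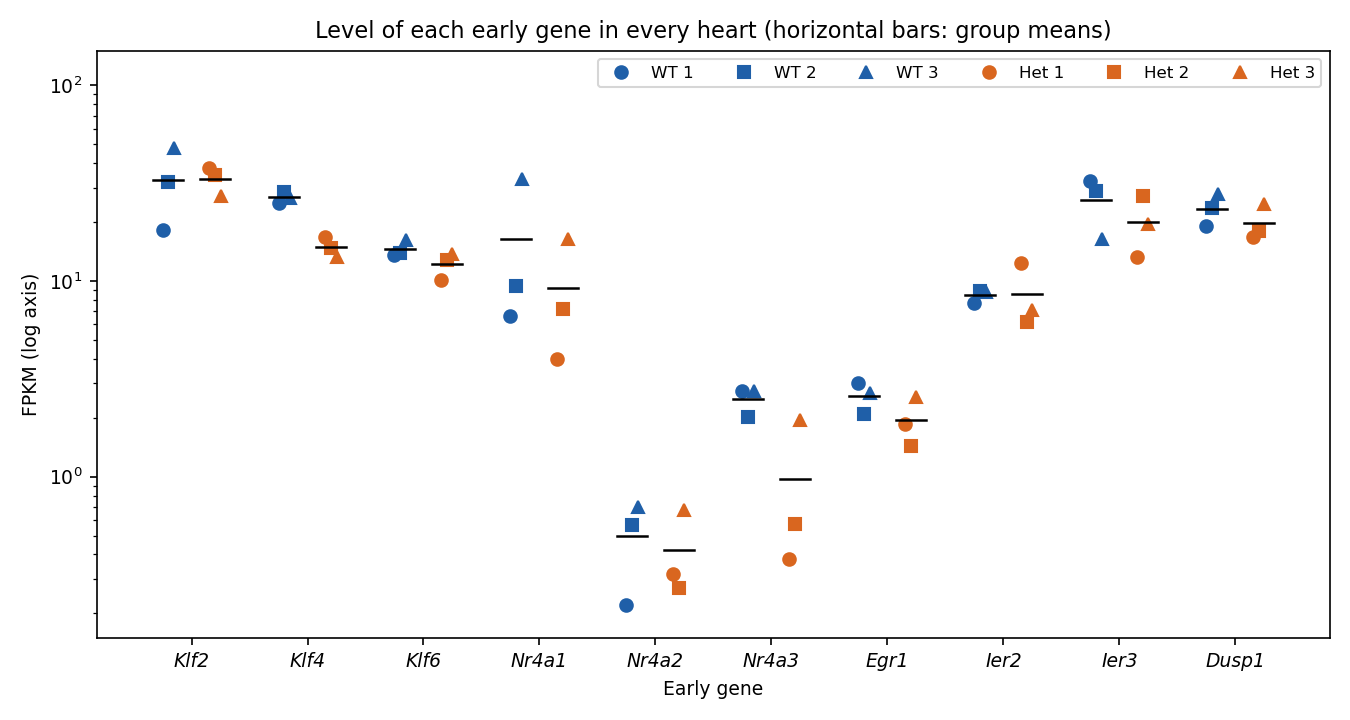
FPKM of the 10 early genes on a log axis in the 3 WT hearts (blue) and the 3 Het hearts (orange). Each replicate number has a marker shape, and a bar stands at each group mean. Equal numbers were not treated as pairs in the main test. Klf4 and Nr4a3 are the members whose Het points all lie below their WT points, and Nr4a1 and Klf2 are widely spread within WT.

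Klf4 (ENSMUSG00000003032, chromosome 4, 55527143 to 55532466, minus strand, GRCm38, GENCODE M21) had the smallest unadjusted p of the members. It stood at 25.1, 28.3 and 26.6 FPKM in WT 1, 2 and 3, against 16.7, 14.7 and 13.3 FPKM in Het 1, 2 and 3. The highest Het heart was thus well under the lowest WT heart. Its means were 26.7 ± 1.60 FPKM for WT against 14.9 ± 1.73 FPKM for Het (SD, n = 3 each). The log2 fold change was −0.80 (SE 0.19, 95% interval −1.26 to −0.35), or −0.62 relative to the median of all tested genes, which was −0.18. Limma's p was 0.00446 unadjusted and 0.753 adjusted. A two-sided exact permutation test gave 0.1, and 3 hearts against 3 cannot give less. Over the alternatives the adjusted p ran from 0.0194 to 0.936. It was 0.0566 without Het 1, and Klf4 passed at 0.0194 with library weights, which give Het 1 a weight of 0.0486 against 1.51 to 2.55 for the others.

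The separation of Klf4 in Het 1 depends on scale. After median-ratio scaling Klf4 was 22.8 FPKM in Het 1 and 22.9 FPKM in WT 1, while Het 2 and Het 3 were at 13.9 and 12.7 FPKM. By rank, Klf4 was above 90.5% of tested genes in Het 1 and above 90.3% to 91.9% in WT, so after quantile normalization the groups overlapped. In Het 2 and Het 3 its rank was lower, above 83.4% and 81.9% of tested genes. With either scaling the log2 fold change kept its sign, at −0.59 and −0.57. In bulk tissue, fewer cells of a type and less RNA per cell cannot be told apart.

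Klf2 (ENSMUSG00000055148, chromosome 8, 72319033 to 72321656, plus strand), the other flow-induced KLF, did not separate the genotypes. Its levels were 18.1, 32.1 and 47.6 FPKM in WT 1, 2 and 3, against 37.5, 34.6 and 27.2 FPKM in Het 1, 2 and 3. All Het hearts lay inside the range of the WT hearts. The means were 32.6 ± 14.7 FPKM for WT against 33.1 ± 5.32 FPKM for Het (SD, n = 3 each). The log2 fold change of 0.11 had an interval of −0.78 to 1.00, so neither a clear decrease nor a clear increase was detectable (limma adjusted p 0.902). Het 3, the heart with lung transcripts, had the lowest Klf2 of the Het hearts. Klf6, induced by tissue injury, stood at 13.5, 13.9 and 16.2 FPKM across the WT hearts, against 10.1, 12.8 and 13.7 FPKM in Het. The highest Het heart barely reached the lowest WT hearts, and the log2 fold change was −0.24 (SE 0.20, adjusted p 0.753 in limma's test), or −0.06 relative to the median gene.

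Ratios of genes within a heart do not change with library scaling. These ratios were chosen after the values had been seen and carry no test. Klf4 to Klf2 was 1.39, 0.882 and 0.559 in WT 1, 2 and 3, against 0.446, 0.425 and 0.489 in Het 1, 2 and 3. Every Het ratio lay below every WT ratio, by a small margin against WT 3, where Klf2 was highest. Klf4 relative to Cdh5, the cadherin of endothelial junctions, was 0.710, 0.629 and 0.719 among WT hearts, against 0.538, 0.377 and 0.269 among Het hearts, again without overlap. Relative to Pecam1, another endothelial junction protein, Klf4 was 0.881, 0.934 and 1.03 among WT hearts, against 0.895, 0.647 and 0.433 among Het hearts. Here Het 1 lay within the WT range. Klf4 to Klf6 was 1.86, 2.05 and 1.64 among WT hearts, against 1.66, 1.15 and 0.974 among Het hearts, so Het 1 lay within the WT range here too. Klf2 relative to Cdh5 ran from 0.512 to 1.29 over the WT hearts and from 0.551 to 1.21 over the Het hearts, inside the WT range. The summed endothelial markers overlapped between the groups, as given above. Hepatocyte markers, at 98.8 FPKM or more in WT hearts and 37.1 FPKM or less in Het hearts, were lower in each Het heart, as Klf4 and Nr4a3 were. The summed cardiomyocyte and fibroblast markers were also lower in each Het heart, and the macrophage markers higher, by under 1 FPKM at the nearest hearts for fibroblast markers and by 148 against 147 FPKM for macrophage markers. The part of these markers in the values of Klf4 and Nr4a3 was not tested.

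**Figure D2:**
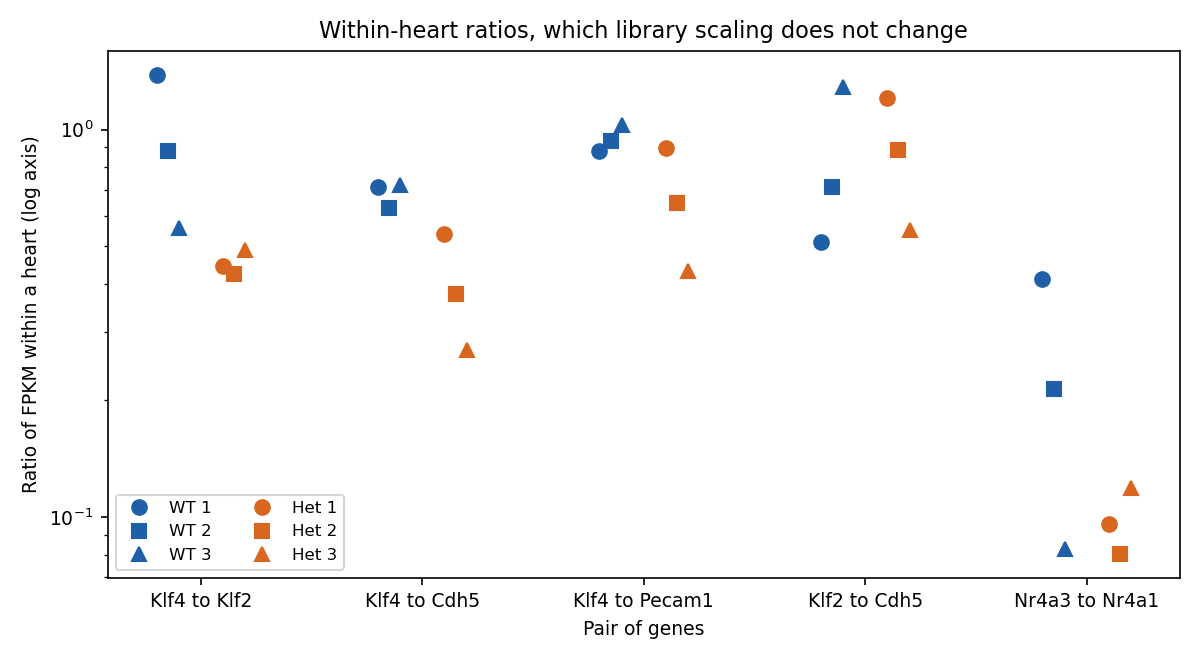
Ratio of the FPKM of 2 genes within each heart on a log axis, for 5 of the pairs, with WT hearts in blue and Het hearts in orange. Klf4 to Klf2 and Klf4 to Cdh5 are lower in every Het heart, while Klf4 to Pecam1, Klf2 to Cdh5 and Nr4a3 to Nr4a1 overlap.

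Of the NR4A receptors, Nr4a3 (NOR1, ENSMUSG00000028341, chromosome 4, 48045153 to 48086447, plus strand) was the one that separated the groups. It was 2.73, 2.01 and 2.75 FPKM in WT 1, 2 and 3, against 0.381, 0.574 and 1.95 FPKM in Het 1, 2 and 3. Het 1 and Het 2 were far below the WT hearts, whereas Het 3 lay just under WT 2. The means were 2.50 ± 0.418 FPKM for WT against 0.969 ± 0.857 FPKM for Het (SD, n = 3 each). On log2(FPKM + 1), which understates changes at such low levels, the fold change was −0.90 (SE 0.30, 95% interval −1.61 to −0.19), and with a pseudocount of 0.1 it was −1.56. Limma's p was 0.0200 unadjusted and 0.753 adjusted, and the exact permutation test again gave 0.1. Without Het 3 the log2 fold change was −1.24 and the adjusted p 0.0714. After scaling without mitochondrial genes, and after quantile normalization, Het 3 overlapped WT 2. After median-ratio scaling Het 3 was at 1.862 FPKM and WT 2 at 1.869 FPKM, nearly equal.

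Nr4a1 (NUR77, ENSMUSG00000023034, chromosome 15, 101254269 to 101274795, plus strand), a receptor induced in many cell types by growth factors and stress, varied more within the genotypes than between them. It stood at 6.60, 9.43 and 33.3 FPKM in WT 1, 2 and 3, against 3.98, 7.15 and 16.4 FPKM in Het 1, 2 and 3. WT 3 and Het 3 were the high hearts of their groups. The highest WT heart had 5.05 times the level of the lowest, and the highest Het heart 4.12 times. The SD of log2 values among WT hearts was 1.15, larger than for 99.9% of tested genes. Its log2 fold change of −0.65 had an interval of −2.28 to 0.98 (limma adjusted p 0.754), and without WT 3 it was 0.00069. Nr4a2 (NURR1), best known from dopamine neurons, was near the limit of the table at 0.221, 0.565 and 0.698 FPKM in WT hearts, against 0.319, 0.269 and 0.672 FPKM in Het hearts. All Het hearts lay within the WT range, and its mean under 1 FPKM kept it out of the test. The ratio of Nr4a3 to Nr4a1 was 0.413, 0.213 and 0.0825 among WT hearts, against 0.0957, 0.0803 and 0.119 among Het hearts, so the groups overlapped through WT 3.

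Egr1, which serum and growth factors induce through SRF and its ELK partners, was low in all hearts. It stood at 2.99, 2.09 and 2.67 FPKM across the WT hearts, against 1.86, 1.43 and 2.56 FPKM in Het 1, 2 and 3. Het 1 and Het 2 were below every WT heart and Het 3 was not. The log2 fold change was −0.29 (SE 0.19, 95% interval −0.74 to 0.16, adjusted p 0.753 in limma's test).

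The Het hearts went opposite ways for Ier2. Its level was 7.72, 8.91 and 8.80 FPKM in the WT hearts, and it was 12.4, 6.14 and 7.09 FPKM in Het 1, 2 and 3. Het 1 was above every WT heart and both other Het hearts were below, and the log2 fold change over all hearts was −0.04 (SE 0.27, limma adjusted p 0.946). Without Het 1 it was −0.32 (limma adjusted p 0.336). Ier3 stood at 32.3, 28.8 and 16.5 FPKM across the WT hearts, against 13.2, 27.3 and 19.5 FPKM in Het. Het 1 was the lowest heart and WT 3 the next lowest, so the groups overlapped (log2 fold change −0.36, SE 0.36, limma adjusted p 0.753).

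Dusp1 stood at 19.2, 23.5 and 27.7 FPKM across the WT hearts, against 16.8, 18.0 and 24.6 FPKM in Het. Het 1 and Het 2 were below every WT heart and Het 3 was between WT 2 and WT 3. Its log2 fold change was −0.24 (SE 0.24, limma adjusted p 0.753), or −0.06 relative to the median gene. The annotated span of Dusp1 overlaps 4 other genes, among them Ergic1 on the opposite strand and AC122252.4 and AC122252.1 on its own strand. The dUTP libraries are stranded, but the sources used here do not say if strand entered the quantification. Strand alone cannot separate genes on the same strand, so the level of Dusp1 is uncertain in either case. No other member overlaps an annotated gene.

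**Figure D3:**
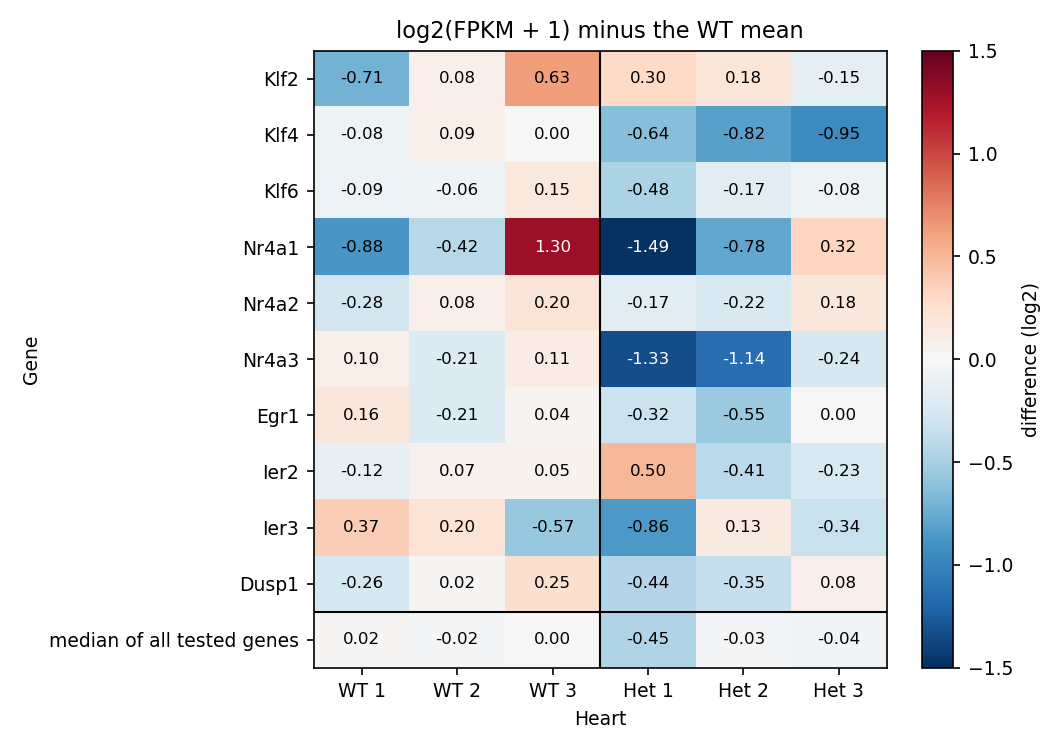
Difference of log2(FPKM + 1) from the WT mean for each early gene (rows) in each heart (columns), with the median of all tested genes in the last row. Klf4 is blue in all 3 Het hearts, Nr4a3 mainly in Het 1 and Het 2, and the median gene itself is at −0.45 in Het 1.

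Counted by heart, 7 of the 10 members in Het 1 were below every WT heart, where 69.2% of all tested genes were. Het 2, whose median gene was close to WT, had 6 of 10 below (Klf4, Klf6, Nr4a3, Egr1, Ier2 and Dusp1), against 33.6% of all tested genes. Het 3 had 3 of 10 below (Klf4, Nr4a3 and Ier2), against 37.7%. Above every WT heart were 1 of 10 members in Het 1, Ier2, and 0 of 10 in Het 2 and Het 3, where 20.2%, 23.2% and 22.2% of all tested genes were. Of the 6 hearts, WT 3 held the highest value of 6 members and Het 1 the lowest value of 5. The matching shares over all genes were not computed. With 69.2% of all tested genes below every WT heart in Het 1, a low value there is not particular to the members. The interferon response genes were high in Het 1 and Het 2 and at the WT level in Het 3, and the lung markers were high in Het 3 alone. The part of either in these counts was not tested.

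In level, Klf2, Klf4, Ier3, Dusp1, Nr4a1 and Klf6 made up the upper order in WT, with means from 32.6 down to 14.5 FPKM, and each overlapped the next over its hearts. Ier2 followed at 8.48 ± 0.658 FPKM (SD, n = 3), apart from Klf6 but inside the range of Nr4a1 (6.60 to 33.3 FPKM). Then came Egr1 and Nr4a3 together at 2.58 and 2.50 FPKM, and Nr4a2 last at 0.495 FPKM. In Het, Klf4 came after Klf2, Ier3 and Dusp1 by mean. Its highest heart, at 16.73 FPKM, lay just under the lowest for Dusp1, its upper neighbour, at 16.80 FPKM. Klf4 overlapped Ier3, which ran from 13.2 to 27.3 FPKM. Spread among WT hearts was large for Nr4a1, Klf2, Ier3 and Dusp1, whose SD of log2 values exceeded that of 99.9%, 99.4%, 98.6% and 90.4% of tested genes. For Klf4, at an SD of 0.08, it exceeded that of 33.3%.

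**Figure D4:**
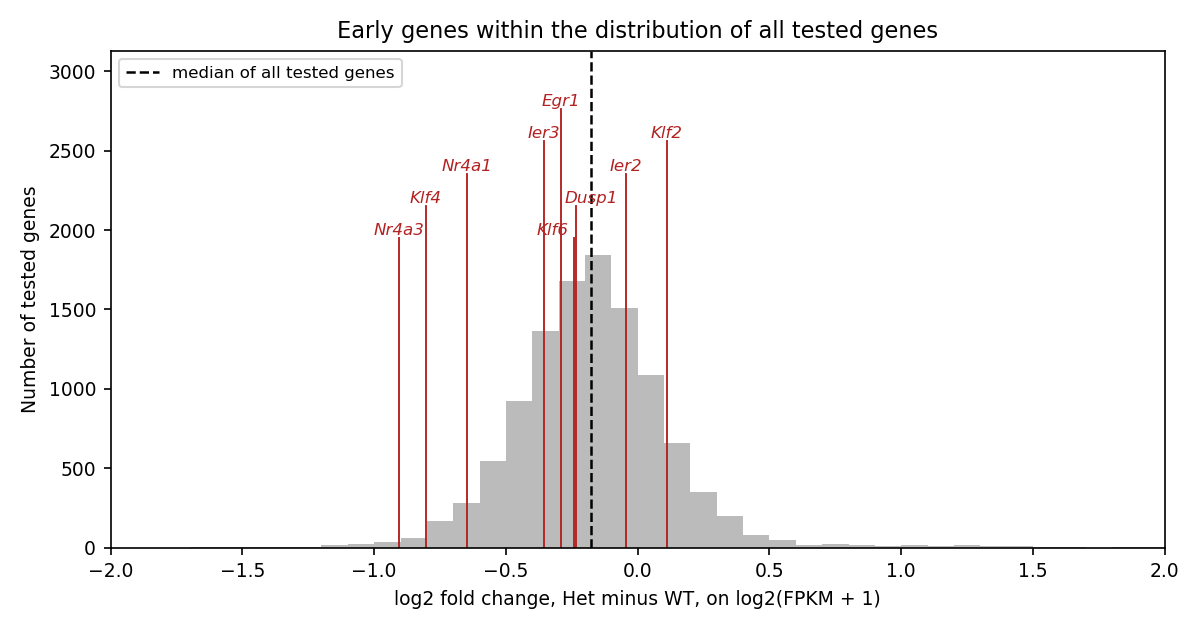
Number of tested genes by log2 fold change (Het minus WT, grey bars, bins of 0.1, genes beyond the axis not shown), with red lines at the 9 tested early genes and a dashed line at the median of all tested genes. Nr4a3 and Klf4 lie in the lower tail at −0.90 and −0.80. Klf2, with a log2 fold change of 0.11, lies above the median.

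The genes whose pattern over the 6 hearts was most like that of a member were found by the root mean square difference of centred log2(FPKM + 1) values. For Klf4 these were Sgk1, a kinase induced by glucocorticoids (0.101), the ribosomal protein gene Rpl3 (0.121) and Yjefn3 (0.141). Sgk1 stood at 24.3, 25.1 and 26.7 FPKM across the WT hearts, against 16.7, 13.3 and 14.8 FPKM in Het. For Nr4a3 they were Alpl, the tissue-nonspecific alkaline phosphatase (0.169), Agt, which encodes angiotensinogen (0.194), and Tmem100 (0.196). The difference is not scaled to a gene's spread, so it runs larger for widely varying genes such as Nr4a1 and does not compare between members. The nearest genes to Nr4a1 were Sik1, a salt-inducible kinase of the cyclic AMP response (0.379), the phosphatase Ptp4a1 (0.414) and Rgs2, a regulator of G protein signalling (0.430). Sik1 shared the high WT 3 of Nr4a1, at 10.4, 9.46 and 26.7 FPKM in WT hearts, against 3.88, 8.91 and 10.6 FPKM in Het hearts. Klf2 was nearest to Relb, a subunit of NF-kappaB (0.203), and Dusp1 to Cttnbp2nl (0.0905). Ier2 was nearest to Ctla2b (0.0515) and Klf6 to Spty2d1 (0.0398), while Egr1 was nearest to Pop4 (0.0689) and Ier3 to Rasl11b (0.119).

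Related genes of the early response were read from 9 lists, of which 87 of 92 listed genes were tested. By limma's adjusted p, 0 of 87 passed. At an unadjusted p under 0.05, 9 were lower and 0 higher, beside 3.08% and 0.802% of all tested genes, and 16 were lower in every Het heart, against 15.6% of all tested genes. The median log2 fold change was −0.22, beside −0.18 for all tested genes. Of 9 other KLF genes 3 were lower in every Het heart, again beside 15.6%. Klf11, a zinc finger factor downstream of TGF-beta, was 3.76 ± 0.248 FPKM for WT against 2.20 ± 0.190 FPKM for Het (SD, n = 3 each, unadjusted p 0.00314 in limma's test, adjusted p 0.753). Klf15, the metabolic KLF of heart that glucocorticoids induce, stood at 27.1, 22.1 and 28.9 FPKM across the WT hearts, against 11.1, 21.4 and 20.5 FPKM in Het, and Klf7 was the other. The median of the KLF list was −0.38.

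Among 6 tested MAP kinase phosphatases 1 was lower in every Het heart (15.6% of all tested genes), Dusp5, which acts on nuclear ERK, at 2.31 ± 0.319 and 1.44 ± 0.501 FPKM (SD, n = 3 each). The list's median was −0.40. Dusp6, the cytoplasmic ERK phosphatase, stood at 6.35 to 7.37 FPKM across the WT hearts, against 3.66 to 6.52 FPKM in Het. Of the NAB co-regulators, which bind EGR proteins and restrain them, Nab2 stood at 3.24 to 3.96 FPKM across the WT hearts, against 2.50 to 3.16 FPKM in Het, and Nab1 overlapped. The RXR genes, whose products pair with NR4A1 and NR4A2, and the pair Ier5 and Ier5l overlapped between the groups for every member.

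The upstream regulators, 22 tested genes of SRF, MAP kinase, CREB and MEF2 signalling, had a median of −0.18, equal to that of all genes to 2 decimals, and 1 of them, Crem, was lower in every Het heart, as were 15.6% of all tested genes, the share against which the next counts also stand. Srf ran from 20.7 to 26.1 FPKM over the WT hearts. Het 2 and Het 3 lay in that range at 21.7 and 24.3 FPKM, and Het 1 was far below it at 4.70 FPKM. Of 9 AP-1, ATF and small Maf genes, Maff and Atf3 were lower in every Het heart. Maff was 5.69, 6.36 and 7.34 FPKM in WT hearts, against 3.23, 3.37 and 3.67 FPKM in Het hearts, with limma's p at 0.00192 unadjusted and 0.646 adjusted. Of 30 other early response genes, 7 were lower in every Het heart: Sgk1, Apold1, Errfi1, Gadd45g, Csrnp1, Nfkbia and Per1. Apold1, an early gene of endothelium, stood at 5.03, 5.65 and 10.7 FPKM across the WT hearts, against 2.87, 3.84 and 2.53 FPKM in Het (unadjusted p 0.0143, adjusted p 0.753 in limma's test). Errfi1, an inhibitor of the EGF receptor, stood at 8.22 to 12.3 FPKM across the WT hearts, against 4.46 to 7.08 FPKM in Het.

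Of 4 tested genes that KLF2 and KLF4 are known to regulate in endothelium, 0 passed an adjusted p of 0.05, and 1, Vcam1, was lower in every Het heart, as were 15.6% of all tested genes. Nos3, the endothelial nitric oxide synthase, which both factors induce, was 12.5, 12.4 and 10.7 FPKM in WT hearts, against 20.1, 9.39 and 8.84 FPKM in Het hearts 1, 2 and 3. Het 1 was above and the other two below every WT heart. Its log2 fold change was 0.0076 (limma adjusted p 0.993). Edn1, the vasoconstrictor endothelin, which KLF2 restrains, stood at 1.47, 1.86 and 1.32 FPKM over the WT hearts, against 1.74, 0.953 and 1.81 FPKM over the Het hearts, and the groups overlapped (log2 fold change −0.04, limma adjusted p 0.928). Thbd, the anticoagulant receptor thrombomodulin, likewise induced by both, was 20.6 ± 3.85 FPKM for WT against 17.4 ± 1.59 FPKM for Het (SD, n = 3 each, limma adjusted p 0.753). Vcam1, an adhesion molecule that both restrain, was below all WT hearts in each Het heart: it measured 1.79, 2.17 and 2.12 FPKM in WT hearts, against 1.16, 1.64 and 1.39 FPKM in Het hearts (unadjusted p 0.0399, adjusted p 0.753 in limma's test).

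**Figure D5:**
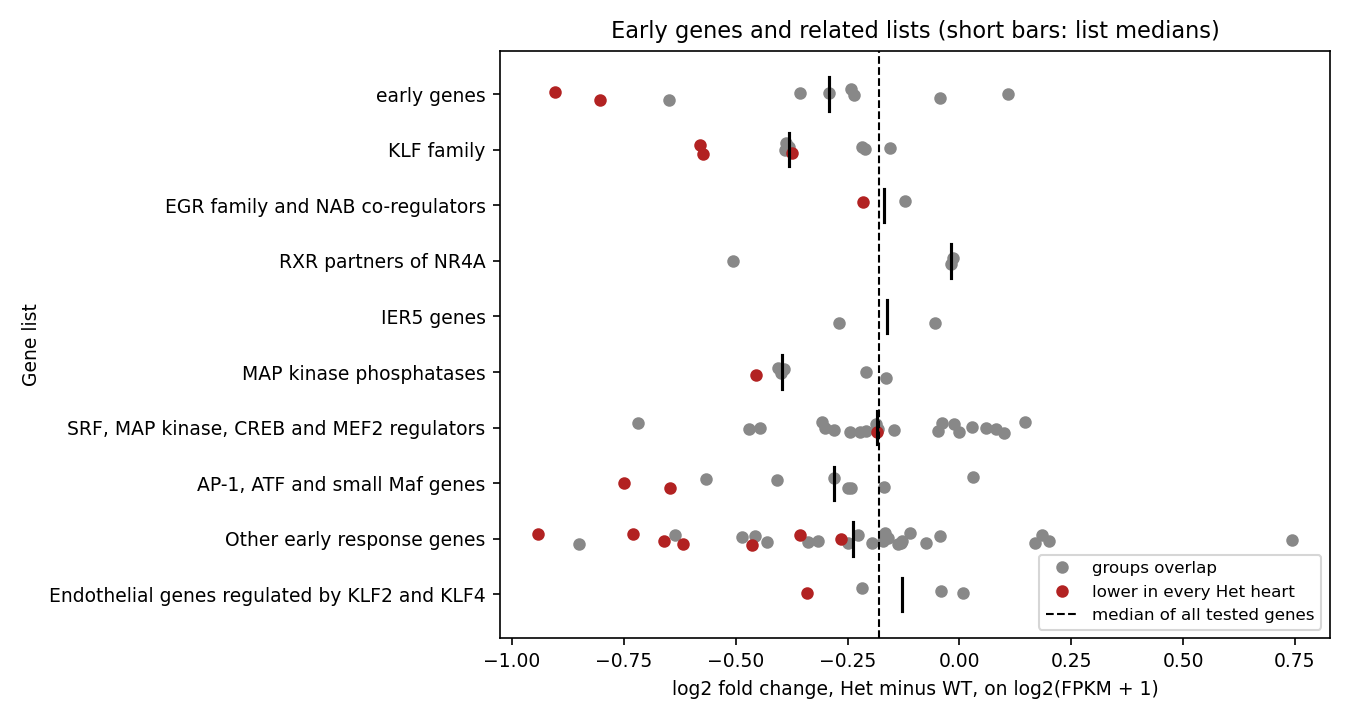
log2 fold change (Het minus WT) of each tested gene in the early genes and in the 9 related lists, with red points for genes lower in every Het heart, short bars at list medians and a dashed line at the median of all tested genes. The early genes have a median of −0.29, the other KLF genes −0.38, the MAP kinase phosphatases −0.40 and the upstream regulators −0.18. The medians of the remaining lists run from −0.28 (AP-1, ATF and small Maf genes) to −0.02 (RXR genes).

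The authors' deposited table gives no early gene an adjusted p under 0.05, where 1.02% of its genes have one. In the authors' deposited table Klf4 has a log2 fold change of −0.84, a p of 0.0424 and an adjusted p of 0.665, and Nr4a3 has −1.36, 0.0251 and 0.531. The other 8 members have unadjusted p values there from 0.303 for Nr4a1 to 0.940 for Nr4a2, and 7.08% of all genes in the authors' deposited table are under 0.05 by that measure.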

How the data were processed

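Poly(A) RNA of 6 mouse hearts was sequenced from dUTP-marked libraries, per the labels' protocols. The submitters' processing notes name the build mm10 and, with no roles, DESeq2, edgeR, StringTie 1.3.4d, HISAT2 2.0.4 and cutadapt 1.9. The deposited table holds FPKM per heart, a unit read from the values and from StringTie being named. The authors also deposited a p-value and q-value, the fold ratio, its log2 value and −log10 of the p-value, per the file headers. As depth is unknown, values carry no counting interval.

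Here 11096 genes whose mean reached 1 FPKM were compared on log2(FPKM + 1) with limma 3.58.1 in R 4.3.3 (lmFit, eBayes with trend and robust variance, Benjamini-Hochberg adjustment, threshold 0.05). The series' design gives 3 mice per genotype, so p-values measure the spread between animals. The fit was tested on simulated data with 100 genes raised by 1 and 100 lowered by 2 on the log2 scale. It called 37 of the raised and 56 of the lowered genes, with 6 false calls, so many of the placed changes were missed. The simulated noise was independent between genes, with no shift of a whole library such as that of Het 1. These shares therefore do not give the power for the real hearts. Alternatives were another pseudocount, other filters, 3 scalings, library weights, a plain variance model, the replicate number as a block and leaving out each heart.

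The members and lists were chosen with earlier results of these data known, so no p adjusted over the members is given. The genes named are the members, Otub1, up to 4 genes of smallest p per list, the 3 most alike genes per member and a few fixed markers. For some members only the most alike gene is named. Csrnp1, Nfkbia and Per1 were named after their values were seen. Coordinates are those of GENCODE M21, which held 97.6% of the table's gene identifiers. Promoters are RefSeq's (GRCm38.p6), matched by symbol and searched for 8 of 10 members, without Ier2 and Egr1. Protein sequences were not used here. Figures were drawn with matplotlib 3.10.9.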

Additional observations from a re-analysis of the deposited data

How the results depend on the processing

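Klf4 and Nr4a3 kept a negative log2 fold change in every alternative that tested them, from −0.89 to −0.57 for Klf4 and from −1.56 to −0.69 for Nr4a3. Neither passed an adjusted p of 0.05 except Klf4 with library weights (log2 fold change −0.87, adjusted p 0.0194). The number of genes called over the whole table was 2, and it was 1 with the replicate block, with median-ratio scaling and with quantile normalization, 22 with library weights, and 1 to 38 when single hearts were left out. The number of early genes lower in every Het heart was 2, and it was 1 with a minimum mean of 5 FPKM, where 7 members were tested, 1 with scaling without mitochondrial genes, 0 with quantile normalization, and 2 to 5 without single hearts. The number lower at an unadjusted p under 0.05 was 2, and it was 1 with a minimum of 5 FPKM, 1 with quantile normalization (Nr4a3), 3 with library weights (Ier2 added), and 1 to 3 without single hearts. Over the whole table, 342 genes were lower and 89 higher at an unadjusted p under 0.05, and 218 and 167 with median-ratio scaling, 230 and 187 with quantile normalization and 233 and 110 with scaling without mitochondrial genes. They were 1111 and 312 with library weights and 1047 and 330 without Het 1. The median of the tested early genes was −0.29, and −0.13 with median-ratio scaling and with quantile normalization, where the median of all genes was −0.02 and −0.01, and it ran from −0.39 to −0.17 without single hearts.

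Direction turned for 4 members. Klf2 was −0.25 without WT 1 and at most 0.43, without WT 3. Nr4a1, at −0.65 with all hearts, rested on WT 3: it was 0.00069 without that heart and at its lowest −1.13, without Het 3. Ier2 was −0.32 without Het 1, 0.14 without Het 2, 0.05 without Het 3, 0.16 with median-ratio scaling and 0.16 with quantile normalization, and Dusp1 was 0.0012 with quantile normalization. The cause was not tested. Same-numbered hearts correlated, as deviations from their group means across genes, at −0.20, −0.43 and 0.21. Deviations from a group mean are not independent, so these values cannot decide if the numbers pair hearts. The replicate block changed no call of a member.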

Other observations

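Klf4 and Nr4a3 lie on the same chromosome, with 7.44 Mb between them (chromosome 4, 48086448 to 55527142, GRCm38). Of the 20 tested genes annotated in that interval, 4 were lower in every Het heart, beside 15.6% of all tested genes, and their median log2 fold change was −0.31, beside −0.18 for all tested genes. Otub1 lies on chromosome 19. The interval was chosen after the values of both genes had been seen.

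By rank among tested genes, Nr4a1 covered the widest range of the early genes in WT, above 63.0%, 73.6% and 93.0% of genes in WT 1, 2 and 3, and it was above 58.8%, 66.1% and 85.6% in Het 1, 2 and 3. Ier2 was above 86.7% of genes in Het 1 and above 61.6% to 72.2% in the other 5 hearts.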
